A study of Homo sapiens with 2 samples.

Results

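The miR-15/16 family was followed through 10 mature arms of 5 miRNAs, out of 2218 mature miRNAs in the deposited table. They are hsa-miR-15a-5p, hsa-miR-15a-3p, hsa-miR-15b-5p, hsa-miR-15b-3p, hsa-miR-16-5p, hsa-miR-16-1-3p, hsa-miR-16-2-3p, hsa-miR-195-5p, hsa-miR-195-3p and hsa-miR-497-5p, written below without the species prefix. The arms were chosen by name, and all 10 had a read in at least 1 library. They were measured by small RNA sequencing in K562, an established human erythroleukaemia cell line. One library came from K562 cells carrying a GFP lentivirus, which served as the control. The other came from K562 cells carrying a lentivirus that overexpresses QKI5, the isoform of the RNA-binding protein Quaking that stays in the nucleus. Both groups were transduced, so an untransduced state is not part of the comparison, and the sources used here give no time after transduction. The comparison asks how each arm's abundance differs under QKI5 overexpression.

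miR-15 and miR-16 are made together from hairpins that sit side by side in one primary transcript. Drosha cuts the hairpins out, Dicer opens them into a 5p and a 3p arm, and one arm is usually kept in Argonaute while the other is degraded. Each mature arm has a seed, the stretch that pairs with target mRNAs. The 5p arms of the family share 1 seed and repress BCL2, cyclin D and cyclin E transcripts and other genes of survival and cell cycle entry. The family is best known in blood cells, where the copy in DLEU2 at 13q14 is often deleted in chronic lymphocytic leukaemia. QKI proteins bind RNA at an ACUAA core and a nearby shorter UAA element.

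All 10 arms had a mature sequence in RefSeq (GRCh38.p14). They are shown because the 5p arms share a seed and the 3p arms tell the gene copies apart. Capitals mark the seed, bases 2 to 8 from the 5′ end.
miR-16-5p: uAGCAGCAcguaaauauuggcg
miR-15a-5p: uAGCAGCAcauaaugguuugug
miR-15b-5p: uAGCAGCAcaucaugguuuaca
miR-195-5p: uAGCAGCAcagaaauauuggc
miR-497-5p: cAGCAGCAcacugugguuugu
miR-15a-3p: cAGGCCAUauugugcugccuca
miR-16-1-3p: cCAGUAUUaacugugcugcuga
miR-15b-3p: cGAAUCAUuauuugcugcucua
miR-16-2-3p: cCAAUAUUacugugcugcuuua
miR-195-3p: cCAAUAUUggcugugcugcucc

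The 5 arms named 5p had the seed AGCAGCA in common, whereas the 3p arms had 4 different seeds among 5 sequences, with CAAUAUU shared by miR-16-2-3p and miR-195-3p. miR-15a-5p and miR-15b-5p shared their first 11 bases and differed at 4 positions, A12C, G20A, U21C and G22A, counted from the 5′ end with the base of miR-15a-5p first. miR-16-5p and miR-195-5p differed over 21 bases at G10A and U11G, with the base of miR-16-5p first. The sources used here do not state how many mismatches the authors allowed, so reads of these close relatives may not be fully separate.

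miR-16-5p has 2 hairpin genes that give the same mature sequence, so its reads cannot be assigned to either. The hairpins of both copies are shown because only their 3p arms, and the miR-15 arms beside them, are particular to one copy. Capitals mark the 5p and 3p arms.
MIR15A: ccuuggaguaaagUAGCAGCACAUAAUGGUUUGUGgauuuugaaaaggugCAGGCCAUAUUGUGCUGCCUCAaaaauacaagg
MIR16-1: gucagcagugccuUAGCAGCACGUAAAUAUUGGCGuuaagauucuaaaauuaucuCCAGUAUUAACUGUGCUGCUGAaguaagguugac
MIR15B: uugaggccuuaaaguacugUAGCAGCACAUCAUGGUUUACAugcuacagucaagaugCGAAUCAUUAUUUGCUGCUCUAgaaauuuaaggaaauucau
MIR16-2: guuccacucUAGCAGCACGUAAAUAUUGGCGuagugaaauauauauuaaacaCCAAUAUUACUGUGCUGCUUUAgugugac

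In RefSeq on GRCh38.p14, MIR15A lies at chr13:50049119-50049201 and MIR16-1 at chr13:50048973-50049061, both on the minus strand and 57 bases apart. GENCODE release 29 places both in the long non-coding RNA gene DLEU2 on the same strand. MIR16-1 overlaps none of its exons, while MIR15A overlaps 2 exons among the 8 transcripts that span it. MIR15B lies at chr3:160404588-160404685 and MIR16-2 at chr3:160404745-160404825 on the plus strand, 59 bases apart and in introns of SMC4, which encodes a condensin subunit. MIR195 and MIR497 lie on the minus strand of chromosome 17, 209 bases apart, in MIR497HG. The authors mapped to hg19, so these positions serve only to describe the hairpins.

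The letters ACUAA were not found on the sense strand of any of the 6 hairpins, and on the reverse strand they occurred in MIR16-2. Of 1560 human hairpins in RefSeq, 3.27% held ACUAA on the sense strand and 6.35% on either strand. UAAC, which can overlap the end of ACUAA when a C follows, was in 1 of the 6 on the sense strand, in the 3p arm of MIR16-1, and on the reverse strand in MIR16-1 and MIR497. It was in 12.6% of all hairpins on the sense strand and in 22.9% on either strand. UAAU, which can overlap ACUAA likewise when a U follows, was in 1 of the 6 on the sense strand, in the 5p arm of MIR15A. It was in 4 of the 6 on either strand, but in MIR16-1, MIR15B and MIR16-2 on the reverse strand only. UAAU was in 15.3% of all hairpins on the sense strand and in 22.1% on either strand. Letters on the reverse strand are not part of the hairpin RNA itself. The 6 hairpins were 81 to 112 bases long, and the median of all hairpins was 80 bases. These are matches of letters within the hairpins, and sequence outside them was not searched.

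Levels are in RPM (reads per 1000000 sequenced in that library), and each could be turned back into whole reads. The values imply a total of 23262340 reads for the GFP library, 15418197 of them on listed miRNAs. For the QKI5 library they imply 6553945 and 3899030, so the total of the control was 3.55 times as large. There was 1 library per group. No difference below has a replicate check, and each 95% interval covers counting error only. The 4 erythroid marker miRNAs fixed for a check of the cell type were all detected, summing to 3907 RPM with GFP and 3141 RPM with QKI5, and the 3 markers of blood cells summed to 19084 and 20863 RPM. The hepatocyte marker miR-122-5p had at most 0.0430 RPM, with 0 in the QKI5 library, and the 2 listed muscle markers had at most 0.915 RPM, 1 of them at 0 with QKI5. Markers of neurons (378 and 332 RPM, nearly all miR-9-5p), of epithelium (63.4 and 69.4 RPM) and of smooth muscle and fibroblasts (2588 and 2574 RPM, nearly all of 1 miRNA, miR-145-5p) were present at like summed levels in both libraries. Their part in the results was not tested.

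The family made up a larger share of the miRNA pool with QKI5, and miR-16-5p accounted for all of the net gain. With GFP the 10 arms took 1.72% of all reads on listed miRNAs (exact binomial interval 1.71% to 1.73%), and with QKI5 they took 2.62% (2.61% to 2.64%). Without miR-16-5p, the other 9 arms held 0.652% with GFP and 0.488% with QKI5, so the remainder of the family lay lower in sum. Most reads of that sum were of miR-15a-5p and miR-15b-5p. Not every arm in it was lower, since miR-15b-3p, miR-16-2-3p and miR-195-5p were higher with QKI5. Summed RPM of these 9 arms was 1.49-fold lower with QKI5 (counting interval 1.47 to 1.51). The size of the gain in share depended on which miRNAs were in the sum. With miR-19a-3p and miR-19b-3p left out of it, the 10 arms took 4.40% with GFP and 5.08% with QKI5. That is a smaller relative gain than from 1.72% to 2.62%.

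**Figure D1:**
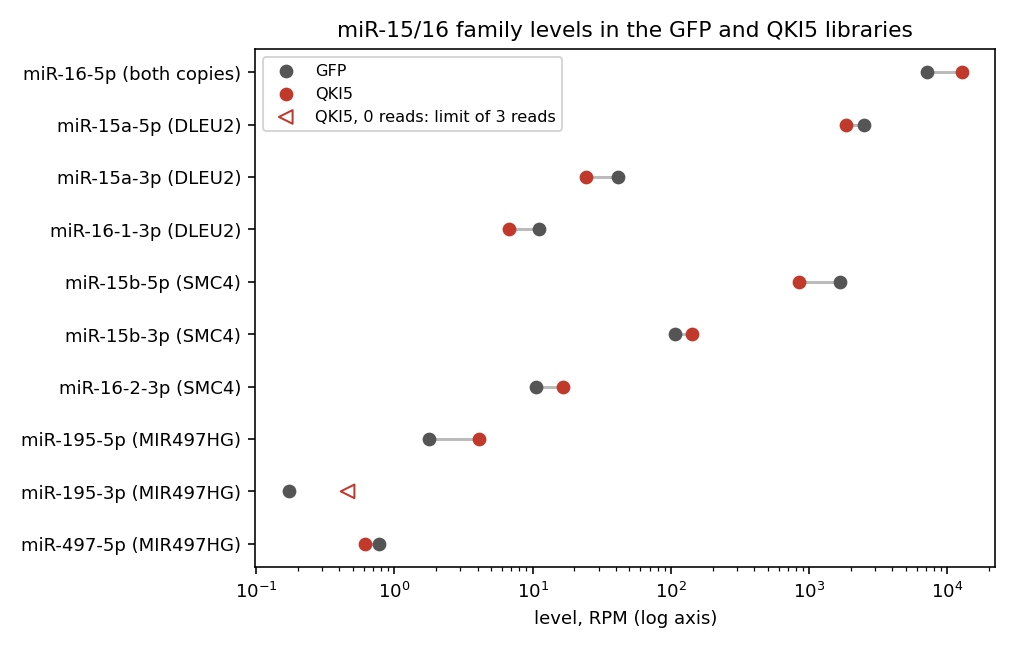
Level of each of the 10 arms in RPM on a log axis, with the GFP library in grey and the QKI5 library in red, and the host gene of the hairpin in parentheses. The arms span from 12705 RPM for miR-16-5p with QKI5 down to under 1 RPM for miR-195-3p and miR-497-5p, and the open triangle marks the limit of 0.458 RPM that 0 reads allow.

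Among the guide arms, miR-16-5p was the most abundant member, at 7083 RPM with GFP and 12705 RPM with QKI5, which ranked it 10 and 7 among all listed miRNAs. It was 1.79-fold higher with QKI5 (1.78 to 1.81). miR-15a-5p, its partner in DLEU2, went the other way. Its level was 2491 RPM with GFP and 1860 RPM with QKI5, 1.34-fold lower (1.31 to 1.37). miR-15b-5p, the partner in SMC4, was at 1658 RPM with GFP and 848 RPM with QKI5, 1.95-fold lower (1.90 to 2.01). The order of these 3 was the same in both libraries, but the distances between them were wider with QKI5. There were 2.84 reads of miR-16-5p per read of miR-15a-5p with GFP and 6.83 with QKI5, a change of 2.40-fold (2.35 to 2.45). Against miR-15b-5p the figures were 4.27 and 14.98, a change of 3.50-fold (3.40 to 3.61). A constant factor per column leaves ratios of members within a library as they are. Quantile normalization does not, and under it miR-16-5p had a log2 ratio of 0.48 and miR-15a-5p one of -0.46, in place of 0.84 and -0.42.

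The passenger arms of the DLEU2 hairpins were lower with QKI5. miR-15a-3p was at 41.6 RPM with GFP and 24.1 RPM with QKI5, 1.73-fold lower (1.46 to 2.06). miR-16-1-3p was at 11.0 RPM with GFP, from 257 reads, and at 6.71 RPM with QKI5, from 44 reads, 1.65-fold lower (1.19 to 2.32). Together with miR-15a-5p, all 3 arms particular to DLEU2 thus had an interval below a ratio of 1. Of the 400 miRNAs with the highest mean level, 168 had a log2 ratio below 0. An exact binomial test of reads called 75% of the 400, in either direction.

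The passenger arms of the SMC4 hairpins were higher instead. miR-15b-3p was at 106.6 RPM with GFP and 142 RPM with QKI5, a ratio of 1.34 (1.24 to 1.44). miR-16-2-3p was at 10.6 RPM with GFP, from 246 reads, and at 16.5 RPM with QKI5, from 108 reads, a ratio of 1.56 (1.23 to 1.96). The SMC4 copy therefore held arms on both sides of 1, with the guide arm of miR-15b lower and the passenger arms of miR-15b and miR-16-2 higher. Of the 400 miRNAs with the highest mean level, 232 had a log2 ratio above 0, and their median was 0.21. The log2 ratio was 0.42 for miR-15b-3p and 0.63 for miR-16-2-3p. Under quantile normalization these were 0.15 and 0.29.

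The chromosome 17 pair was scarce in these cells. miR-195-5p carries the family's seed and differs from miR-16-5p in the middle of the molecule. It was at 1.76 RPM with GFP and 4.12 RPM with QKI5, a ratio of 2.34 (1.38 to 3.89) that rests on 41 and 27 reads. miR-16-5p had 164759 and 83265 reads, and whether some of the 41 and 27 reads came from it was not tested. miR-497-5p had 18 reads with GFP and 4 with QKI5, at 0.774 and 0.610 RPM, a ratio of 0.789 (0.194 to 2.39). A difference in miR-497-5p was not detectable at this depth. miR-195-3p had 4 reads with GFP and 0 with QKI5, where 0 reads allow up to 0.458 RPM, above the 0.172 RPM of the GFP library, so nothing can be said of its direction.

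**Figure D2:**
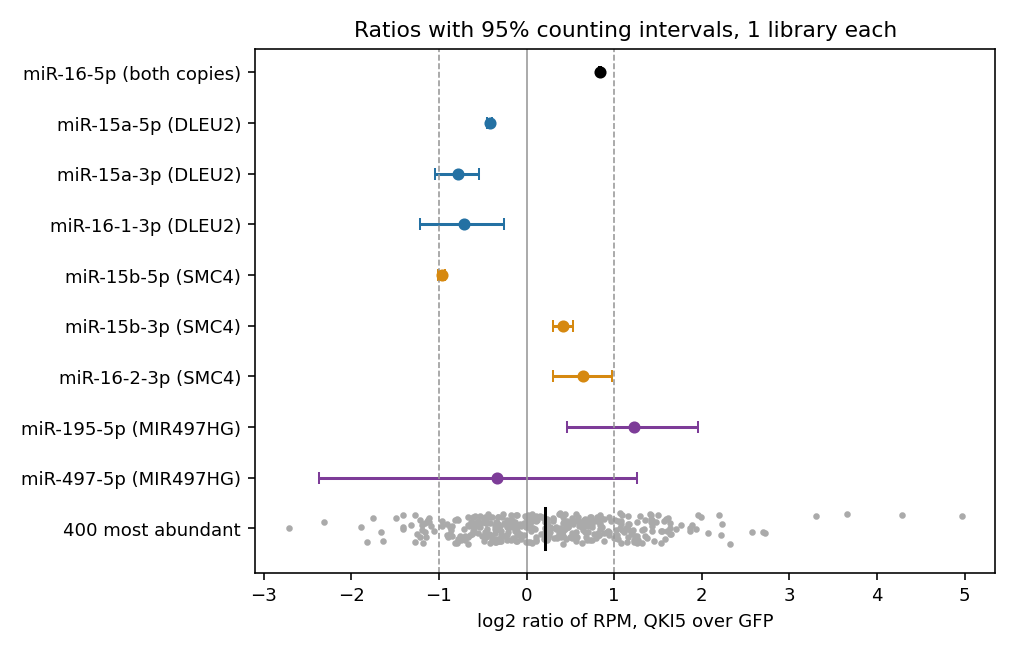
Log2 ratio of RPM, QKI5 over GFP, for 9 arms with 95% counting intervals, colored by host gene, above grey points for the 400 most abundant miRNAs (black bar, their median of 0.21; dashed lines, 2-fold). The DLEU2 arms all lie left of 0, the SMC4 arms lie on both sides, and miR-195-3p is left out because it had 0 reads with QKI5.

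Size of the differences was read against all 400 miRNAs with the highest mean level, using log2(RPM + 0.153), where 0.153 RPM is the pseudocount. On this scale, ratios of scarce miRNAs come out too small. Of the 10 arms, 7 lay among those 400. Of these 7, 0 were at least 2-fold higher with QKI5, where 20.8% of the 400 were, and 0 were at least 2-fold lower, where 7.25% were. At 1.5-fold, miR-16-5p and miR-16-2-3p were higher (2 of 7, against 34% of the 400) and miR-15b-5p, miR-15a-3p and miR-16-1-3p were lower (3 of 7, against 17.5%). The 7 arms had a median log2 ratio of -0.42, with 3 above 0 and 4 below, while the 400 had a median of 0.21, with 232 above 0 and 168 below. Within the 400, 30 miRNAs had a lower log2 ratio than miR-15b-5p (-0.97) and 95 had a higher one than miR-16-5p (0.84).

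The whole reads were also put to an exact binomial test, adjusted by Benjamini-Hochberg over the 1995 miRNAs detected, which called 8 of the 10 members and 21.4% of all detected miRNAs. Among the 400 most abundant it called 75% of all and 7 of 7 members. That test compares these libraries and not the conditions.

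The copies were compared through like arms. For the passenger arms, the balance lay further toward SMC4 with QKI5. There were 2.56 reads of miR-15b-3p per read of miR-15a-3p with GFP and 5.91 with QKI5, a change of 2.31-fold (1.92 to 2.77). For miR-16 the ratio of miR-16-2-3p to miR-16-1-3p was 0.957 with GFP and 2.45 with QKI5, a change of 2.56-fold (1.73 to 3.79). The 2 pairs of passenger arms thus changed in the same direction, with intervals that overlap. On the log2 scale these changes were 1.21 for miR-15 and 1.36 for miR-16. Log2 ratios of single miRNAs among the 400 most abundant had a standard deviation of 0.95, which is not the spread of a ratio between 2 miRNAs. How common such changes are among other pairs of miRNAs was not tested.

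The guide arms of miR-15 gave the opposite direction. There was 0.666 of a miR-15b-5p read per read of miR-15a-5p with GFP and 0.456 with QKI5, 1.46-fold lower (1.41 to 1.51). The mean log2 ratio over the 3 arms of each copy was 0.03 for SMC4 and -0.64 for DLEU2, a difference of 0.66 (counting interval 0.46 to 0.87). That mean joins arms that went opposite ways, and with the values of the 3 arms summed, so that the guide arms dominate, the difference turned to -0.39.

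Within each copy the passenger arms of the neighbouring hairpins did not differ in proportion beyond counting error. In DLEU2 there were 3.77 reads of miR-15a-3p per read of miR-16-1-3p with GFP (3.28 to 4.34) and 3.59 with QKI5 (2.56 to 5.14). In SMC4 there were 10.1 reads of miR-15b-3p per read of miR-16-2-3p with GFP (8.84 to 11.5) and 8.64 with QKI5 (7.07 to 10.6). The intervals of the changes were 0.664 to 1.37 in DLEU2 and 0.675 to 1.09 in SMC4, so changes of up to about those sizes were not detectable.

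**Figure D3:**
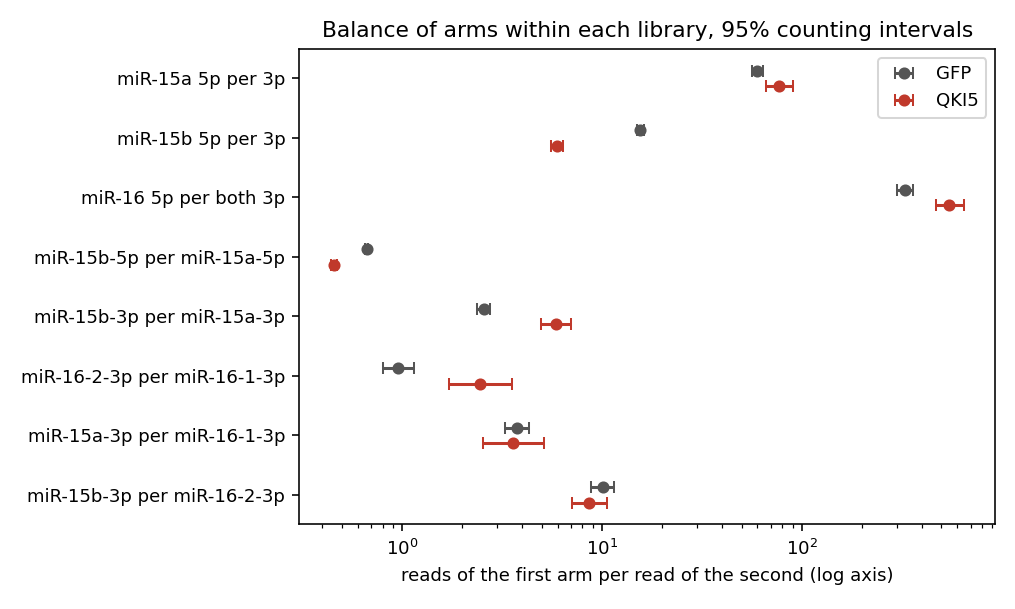
Reads of one arm per read of another within each library on a log axis, with 95% counting intervals, for GFP in grey and QKI5 in red. The 5p to 3p ratio of miR-15b is lower with QKI5 (5.96 against 15.6), both 3p ratios of SMC4 to DLEU2 are higher, and the bottom 2 ratios, within a copy, have overlapping intervals.

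The change in balance between the arms of a hairpin also differed between miR-15b and miR-15a. miR-15b had 15.6 reads of its 5p arm per read of its 3p arm with GFP and 5.96 with QKI5, 2.61-fold lower (2.41 to 2.83). miR-15a was skewed more strongly to the 5p arm, with 59.9 reads per 3p read with GFP and 77.2 with QKI5, a change of 1.29-fold (1.09 to 1.53) in the other direction. miR-16-5p stood at 328 reads per read of both miR-16 3p arms with GFP and at 548 with QKI5, a change of 1.67-fold (1.40 to 2.01). The gain of miR-16-5p therefore exceeded that of the summed 3p arms of its hairpins.

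A shift like that of miR-15b was not rare in these libraries. Of 102 hairpins with both arms among the 400 most abundant miRNAs, 17.6% moved at least 2-fold toward the 3p arm with QKI5 and 22.5% at least 2-fold toward the 5p arm. miR-15b was 1 of the 2 family hairpins tested, and its log2 change of -1.38 was 14th from the lowest of the 102. miR-15a, at 0.37, lay near the median of 0.15 and within the quartiles of -0.64 and 0.89.

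**Figure D4:**
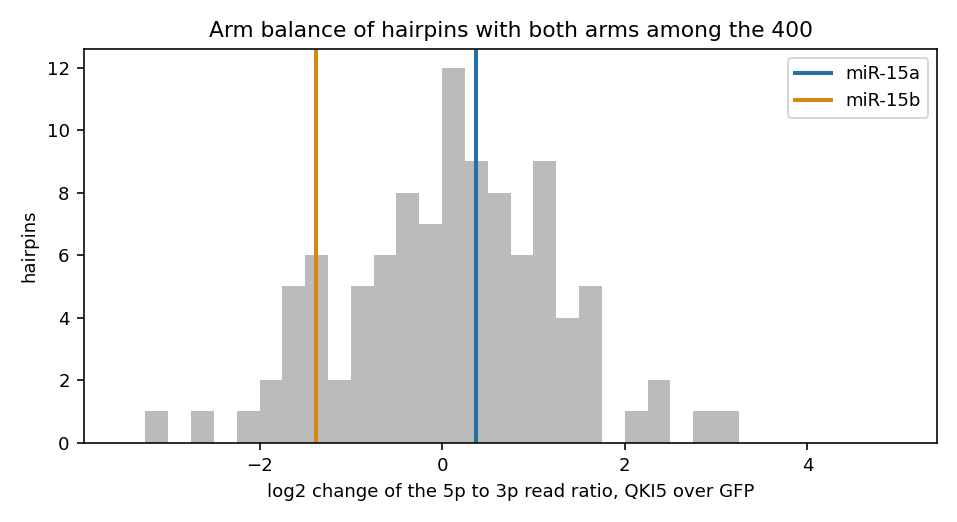
Histogram of the log2 change in the 5p to 3p read ratio, QKI5 over GFP, for 102 hairpins, with bars 0.25 wide that count hairpins. The line for miR-15b (-1.38) lies in the lower tail, where other hairpins also lie, and that for miR-15a (0.37) near the middle.

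Among the 1946 listed miRNAs that had a RefSeq sequence, 7 share the seed AGCAGCA. They are the 5 guide arms of the family plus miR-424-5p and miR-6838-5p, a pool that could act on the same target sites. Listed miRNAs without such a sequence were not searched. Summed, this pool was at 11312 RPM with GFP and 15550 RPM with QKI5, a ratio of 1.37 (1.36 to 1.38). Its make-up shifted toward miR-16-5p, which was 62.6% of the pool with GFP (62.4% to 62.8%) and 81.7% with QKI5 (81.5% to 81.9%). miR-15a-5p made up 22.0% and 12.0%, and miR-15b-5p 14.7% and 5.46%. The remaining 4 miRNAs together were 0.723% and 0.878% of the pool, so a member other than these 3 was a minor part of it in either library.

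**Figure D5:**
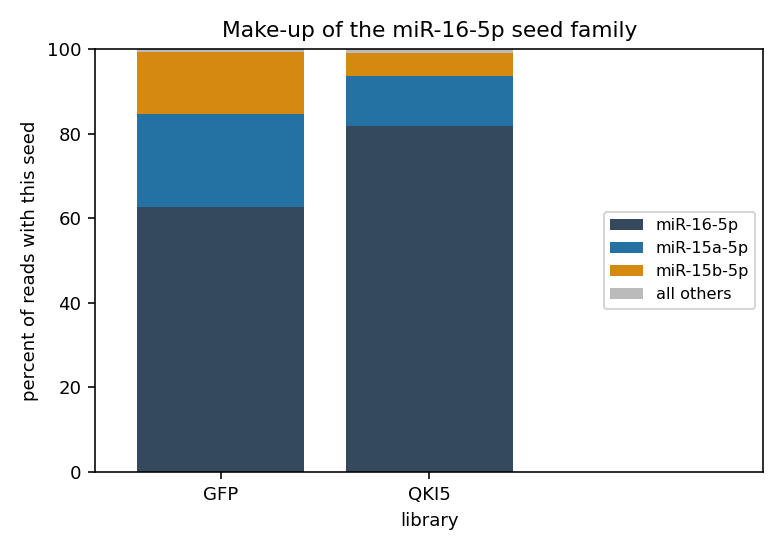
Stacked bars of the percent of reads of the 7 miRNAs with the seed of miR-16-5p in each library, for miR-16-5p, miR-15a-5p, miR-15b-5p and the sum of the other 4. miR-16-5p fills 62.6% of the GFP bar and 81.7% of the QKI5 bar, and both miR-15 arms take smaller shares with QKI5.

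The wider group of miR-15 and miR-107 relatives, known for AGCAGC near the 5′ end, was listed for 6 of the 7 other names fixed for it, and 5 lay among the 400 most abundant. Of the 6, miR-103b did not hold AGCAGC in its RefSeq sequence. Of the 5, 2 were at least 2-fold higher with QKI5 (20.8% of the 400 were) and 0 at least 2-fold lower (7.25% of the 400). They were miR-103a-3p, at 3202 RPM with GFP and 6775 RPM with QKI5 (2.12-fold, 2.09 to 2.14), and miR-103b, at 1130 and 2398 RPM (2.12-fold, 2.08 to 2.16). The use of strand in counting is not given, and the hairpins of these names lie antisense to each other, so these may not be separate measurements. miR-107 was at 504 and 818 RPM, a ratio of 1.62 (1.57 to 1.68). miR-424-5p, which has the same seed as miR-16-5p, was at 78.9 and 132 RPM, a ratio of 1.67 (1.54 to 1.81), and its neighbour miR-503-5p at 186 and 172 RPM, a ratio of 0.928 (0.868 to 0.991). Arms with AGCAGC among the 400 thus stood on both sides of 1, with miR-15a-5p, miR-15b-5p and miR-503-5p lower and miR-16-5p, miR-103a-3p, miR-107 and miR-424-5p higher.

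miR-3613, whose hairpin lies near the DLEU2 copy on chromosome 13, was also read. miR-3613-3p was at 15.1 RPM with GFP and 9.77 RPM with QKI5, 1.55-fold lower (1.18 to 2.06). miR-3613-5p was at 7.26 and 6.41 RPM, a ratio of 0.882 (0.614 to 1.24) that includes 1.

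Of the non-members among the 200 most abundant miRNAs, those with the nearest log2 ratio to miR-16-5p (0.84) were miR-409-3p (0.85), miR-642a-3p (0.86) and miR-616-5p (0.88). Nearest to miR-15b-5p (-0.97) were miR-19b-1-5p (-0.97), miR-20a-3p (-0.91) and miR-144-3p (-0.90). Nearest to miR-15a-5p (-0.42) were miR-22-3p (-0.42), miR-889-3p (-0.42) and miR-362-3p (-0.43). Likeness here is closeness of a single ratio over 2 libraries.

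Base composition was set beside the copy comparison. Over the 358 of the 400 most abundant miRNAs that had a RefSeq sequence, the log2 ratio was higher by 0.27 for each 10 percentage points of GC. The passenger arms of SMC4 had 36.4% GC, and those of DLEU2 had 54.5% for miR-15a-3p and 45.5% for miR-16-1-3p. With this trend removed the difference between SMC4 and DLEU2 was 0.91 in place of 0.66, so it was larger without the GC trend. miR-15a-5p and miR-15b-5p both had 40.9% GC.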

How the data were processed

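The authors deposited 1 table of mature miRNA levels with 1 column per library. Its name says RPKM, but the deposited values are RPM: in each column 100.0% of the values above 0 were whole multiples of 1 step, within 0.1 of a read. That step (0.0430 RPM for GFP, 0.153 RPM for QKI5) was taken as 1 read. Bowtie 0.12.3 and hg19 were used, per the submitters' processing notes. Ion Torrent libraries of isolated small RNA were read on an Ion Proton, per the labels' protocols. Annotation and the handling of multi-mapping reads were not given in the sources used here.

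Ratios of RPM have exact conditional (Clopper-Pearson) 95% intervals from the reads, and changes in the ratio between arms have a 95% interval on the log scale. Both cover the counting error of reads only. With 1 library per group they leave out variation between cultures and preparations. Without molecular identifiers the reads are also no count of molecules. The limit for 0 reads was 3 reads. Log2 ratios used a pseudocount of 0.153 RPM. With 1 library per group the design had no test; the exact binomial test of reads (adjusted, 0.05) was added after seeing the data. All members were named, with the relatives of miR-15 and miR-107, neighbours of the hairpins, miRNAs with the seed of miR-16-5p, and the 3 nearest in log2 ratio to each main guide arm. Members and lists were chosen with earlier results of these data known. Scripts were tested on simulated data. Software was Python 3.11.15 with pandas 2.3.3, scipy 1.17.1, numpy 2.4.6 and matplotlib 3.10.9.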

Additional observations from a re-analysis of the deposited data

How the results depend on the processing

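The 9 members with reads in both libraries kept the sign of their log2 ratio under the 8 alternatives of pseudocount, scaling, depth and GC. Scaling moved the median log2 ratio of the 400 most abundant miRNAs by -0.22 under quantile normalization, -0.20 under a trimmed mean, -0.11 with the 10 most abundant left out and 0.15 when rescaled to the listed miRNAs, and the higher share of 2-fold calls among the 400 was 74.1% as deposited, 54.5% under quantile normalization, 59.4% under the trimmed mean and 81.2% when rescaled to the listed miRNAs. The count of members at least 2-fold lower was 0 as deposited, 2 under quantile normalization (miR-15a-3p and miR-16-1-3p), and 1 (miR-15b-5p) under the trimmed mean or with the 10 most abundant left out, while the number of the 400 that were 2-fold lower went from 29 to 45, 41 and 34. Over all detected miRNAs it was 1 (miR-195-3p, with 0 reads against 4) and 1 was higher (miR-195-5p). The matching 2-fold shares of all detected miRNAs were not computed, so these counts have no baseline. At 1.5-fold 3 were lower (17.5% of the 400 were) and 2 higher (34% of the 400). The exact binomial test of reads called 4 members each way, while 290 of its 426 calls over all 1995 detected miRNAs were higher. The members' share was 1.14% (GFP) and 1.56% (QKI5) of the library total, 4.396% and 5.08% without miR-19a-3p and miR-19b-3p in the sum, and 0.652% and 0.488% without miR-16-5p. The log2 difference between SMC4 and DLEU2 was 0.66 as reported, 0.33 over miR-15 arms, 1.27 over 3p arms, 0.91 with the GC trend removed and -0.39 for summed arms, where the guide arms dominate. No paired analysis was possible because each group has 1 library, and for the same reason no replicate could be left out.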
